A study of Arabidopsis thaliana with 20 samples.

Results

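The genes described here are those whose mRNA was lower on PAO1 extract in both Δdella and WT seeds, with and without gibberellic acid (GA). A gene was a member when its ratio of FPKM + 1 (FPKM being mapped fragments scaled to transcript length and library size, with 1 added to each value) to that of MS medium was at most 0.667 in all 4 contrasts: extract and extract with GA, in Δdella and in WT seeds, each over MS of the same genotype. The rule found 64 members among the 33557 genes of the table. Because 1 is added, only a gene with at least 0.499 FPKM on MS in both genotypes can reach that ratio, and 17033 genes did. The members were therefore chosen by the extract and MS values themselves, so these values are given below as a description without a test.

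The extract comes from cultures of Pseudomonas aeruginosa strain PAO1, a soil bacterium and opportunistic pathogen that represses Arabidopsis germination. Seeds were WT (Col-0) or Δdella, a quintuple mutant with the genotype rgl2-/- rga-/- gai-/- rgl1-/- rgl3-/-, labelled as Col-0 too. After 20 hr on plates the tested seeds had received PAO1 extract at 0.7 mg/ml, the extract and 10 µM GA, 5 µM paclobutrazol (PAC, an inhibitor of GA synthesis), or PAC and GA, and the control seeds MS medium alone. Each of the 10 groups had 2 biological replicates of whole seeds, which the authors pooled, so that the table gives 1 FPKM value per gene and group. No spread between replicates, and hence no error or p-value, can be given for any difference below. A contrast past the ratio of 0.667, or past 1.5 in the other direction, is called lower or higher only in that sense.

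DELLA proteins are nuclear repressors of GA responses, and GA promotes their destruction. When GA is scarce they accumulate and hold germination back, largely through abscisic acid. The Δdella contrasts ask whether a response to the extract occurs when these 5 genes are mutated. Seeds exposed to light also begin to build their photosynthetic machinery and ultraviolet-absorbing flavonols while they imbibe, and the genes for both are known targets of the light-signalling factors HY5 and the B-box (BBX) proteins.

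The deposited FPKM of a group summed to between 882351 and 988764, and between 12095 and 12791 genes were listed at 0 in a group. The number of reads is unknown from FPKM. The 5 mutated DELLA genes together had 52.0 to 61.8 FPKM in the Δdella groups, against 277 to 438 FPKM in the WT groups. Genes for seed storage and oil body proteins, which mark the embryo, were far from equal between the groups. The 11 genes of that list summed to 232 FPKM with extract, 208 with extract and GA, 206 with PAC, 107 with PAC and GA and 176 on MS in Δdella seeds. In WT seeds the sums were 3265 with extract, 502 with extract and GA, 9598 with PAC, 1579 with PAC and GA and 1016 on MS. In the WT contrasts of the rule 9 of these genes were thus higher with extract and 10 were lower with extract and GA, and none was a member, nor was any of 5 endosperm or 4 epidermis marker genes. The part of this difference in embryo transcripts in the results below was not tested. In whole seeds, fewer cells of a type and less RNA per cell cannot be told apart.

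Of the 64 members, 61 are protein-coding and 3 are genes of small RNAs. The median member had 5.24 FPKM with extract and 5.23 FPKM with extract and GA in Δdella seeds, against 12.0 FPKM on MS. In WT seeds the medians were 6.53 FPKM with extract and 6.10 FPKM with extract and GA, against 15.5 FPKM on MS. The median log2 ratio of FPKM + 1 was -0.90 with extract and -0.93 with extract and GA in Δdella seeds, and -0.96 and -1.16 in WT seeds. Among the 17033 genes that could pass, 1.81% were lower with extract and 1.44% with extract and GA in Δdella seeds, and 1.67% and 2.18% in WT seeds. All members are past these ratios by construction. They made up 28.2% of the 227 genes lower in both Δdella contrasts and 32.7% of the 196 genes lower in both WT contrasts. In all 4 contrasts 15 members were at 0.5 or less of the MS value. The members are spread over the genome, with 17, 11, 9, 12 and 15 on chromosomes 1 to 5 of TAIR10.

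**Figure D1:**
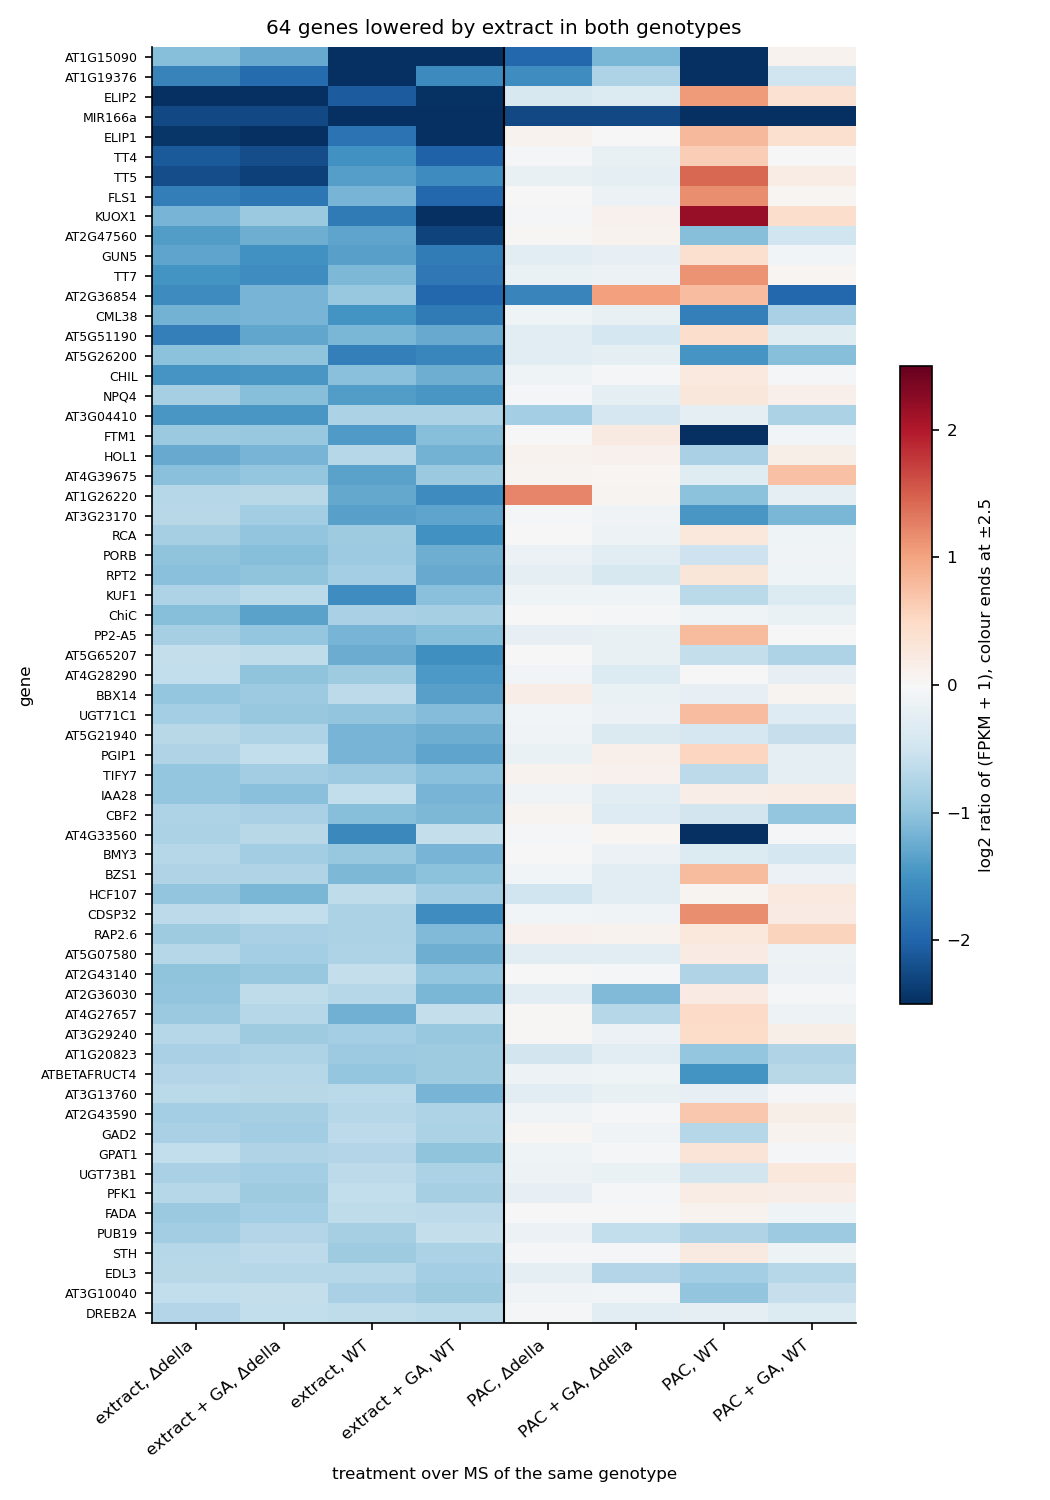
Heat map of the 64 members, 1 row per gene, ordered by the mean of the 4 ratios used by the rule. Columns give the log2 ratio of FPKM + 1 of each treatment over MS of the same genotype, with blue lower and red higher, and the black line separates the 4 contrasts of the rule from the 4 PAC contrasts. The left columns are blue throughout by the rule, while the column for PAC in WT seeds holds 21 lower and 13 higher genes.

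The threshold cuts through a continuous range. The members nearest to it by their highest ratio were AT5G65207 at 0.665, AT3G10040 at 0.662 and AT2G43140 at 0.662. Just outside, among genes with at least 5 FPKM on MS in both genotypes, stood AT3G60290 at 0.669 and NF-YB3 at 0.671. They were followed by GA3OX1 (AT1G15550), a GA biosynthesis enzyme, at 0.673. GA3OX1 had 13.4 FPKM with extract and 13.5 FPKM with extract and GA in Δdella seeds, against 20.6 FPKM on MS. In WT seeds GA3OX1 had 13.9 FPKM with extract and 10.7 FPKM with extract and GA, against 22.4 FPKM on MS.

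The lists were chosen with earlier results of these data known, so their counts of members are a description. Among all genes that could pass, 64 of 17033 were members. The list with the most members was that of flavonoid enzymes, most of them steps to flavonols. Of 14 flavonoid enzyme genes listed, 10 could pass and 5 were members: TT4, TT5, CHIL, TT7 and FLS1. They encode chalcone synthase, the first committed enzyme of the pathway, chalcone isomerase, its non-catalytic helper CHIL, flavonoid 3′-hydroxylase and flavonol synthase. Over the list, 6 genes were lower with extract and 7 with extract and GA in Δdella seeds, and 5 and 6 in WT seeds, with none higher. The enzymes of the branch to anthocyanins and tannins, DFR, LDOX and BAN, had at most 0.169 FPKM in any group and could not pass.

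In Δdella seeds TT4 (AT5G13930) had 33.3 FPKM with extract and 30.8 FPKM with extract and GA, and 141 FPKM with PAC, 128 FPKM with PAC and GA and 147 FPKM on MS. In WT seeds TT4 had 62.8 FPKM with extract and 43.9 FPKM with extract and GA, and 278 FPKM with PAC, 183 FPKM with PAC and GA and 181 FPKM on MS. Both extract values lay far below the other 3 in either genotype. The TT4 value belongs to a region of the table that holds 1 further gene, at chromosome 5, positions 4488688 to 4495585 of TAIR10. In Δdella seeds FLS1 (AT5G08640) had 7.53 FPKM with extract and 7.0 FPKM with extract and GA, against 27.2 FPKM on MS. In WT seeds FLS1 had 13.0 FPKM with extract and 6.98 FPKM with extract and GA, against 30.1 FPKM on MS. Its response to the extract thus had the same form as that of TT4. TT7 (AT5G07990) had log2 ratios of -1.49 with extract and -1.55 with extract and GA in Δdella seeds, and -1.12 and -1.78 in WT seeds. For TT5 (AT3G55120) they were -2.21 and -2.34 in Δdella seeds and -1.37 and -1.57 in WT seeds, and for CHIL (AT5G05270) -1.47 and -1.45 in Δdella seeds and -1.05 and -1.21 in WT seeds.

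The step between chalcone isomerase and flavonoid 3′-hydroxylase did not enter the set. TT6 (AT3G51240), flavanone 3-hydroxylase, had 54.6 FPKM with extract and 51.3 FPKM with extract and GA in Δdella seeds, against 101 FPKM on MS. In WT seeds TT6 had 76.6 FPKM with extract and 58.1 FPKM with extract and GA, against 103 FPKM on MS, and the extract ratio there, at -0.42 on the log2 scale, missed the threshold. UGT89C1 (AT1G06000), a flavonol rhamnosyltransferase, was at -0.56 and -0.75 in Δdella seeds but at -0.25 and -0.31 in WT seeds. Of the 9 regulators of flavonoid genes 5 could pass and none was a member. MYB12 (AT2G47460), an activator of flavonol synthesis genes, came nearest, with log2 ratios of -0.80 with extract and -0.86 with extract and GA in Δdella seeds and -0.50 and -0.96 in WT seeds. Of 8 enzyme genes of the general phenylpropanoid pathway, which feeds it, 6 could pass and none was a member either.

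The ELIP family list had 3 members. ELIP proteins are thylakoid proteins of the light-harvesting family that accumulate under strong light and protect the membrane, and PSBS (listed as NPQ4) is the related sensor of excess light at photosystem II. Of 6 genes in the list, ELIP1, ELIP2 and PSBS were members, and these were the 3 of the list lower in every contrast of the rule. In Δdella seeds ELIP2 (AT4G14690) had 4.22 FPKM with extract and 4.16 FPKM with extract and GA, and 25.3 FPKM with PAC, 26.1 FPKM with PAC and GA and 33.6 FPKM on MS. In WT seeds ELIP2 had 7.17 FPKM with extract and 5.21 FPKM with extract and GA, and 70.8 FPKM with PAC, 43.9 FPKM with PAC and GA and 33.4 FPKM on MS. Its values on MS were close to each other in the genotypes. In Δdella seeds ELIP1 (AT3G22840) had 3.91 FPKM with extract and 2.86 FPKM with extract and GA, against 25.6 FPKM on MS. In WT seeds ELIP1 had 11.4 FPKM with extract and 6.92 FPKM with extract and GA, against 43.7 FPKM on MS. PSBS (AT1G44575) had 19.1 FPKM with extract and 16.1 FPKM with extract and GA in Δdella seeds, against 34.9 FPKM on MS. In WT seeds PSBS had 19.5 FPKM with extract and 18.8 FPKM with extract and GA, against 53.1 FPKM on MS. By the mean of the 4 log2 ratios ELIP2 and ELIP1 stood lowest of the protein-coding members, at -2.50 and -2.39, followed by TT4 at -1.96 and TT5 at -1.87. The other 3 genes of the family, SEP1, OHP1 and OHP2, lay between -0.51 and 0.04 in the 4 contrasts.

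**Figure D2:**
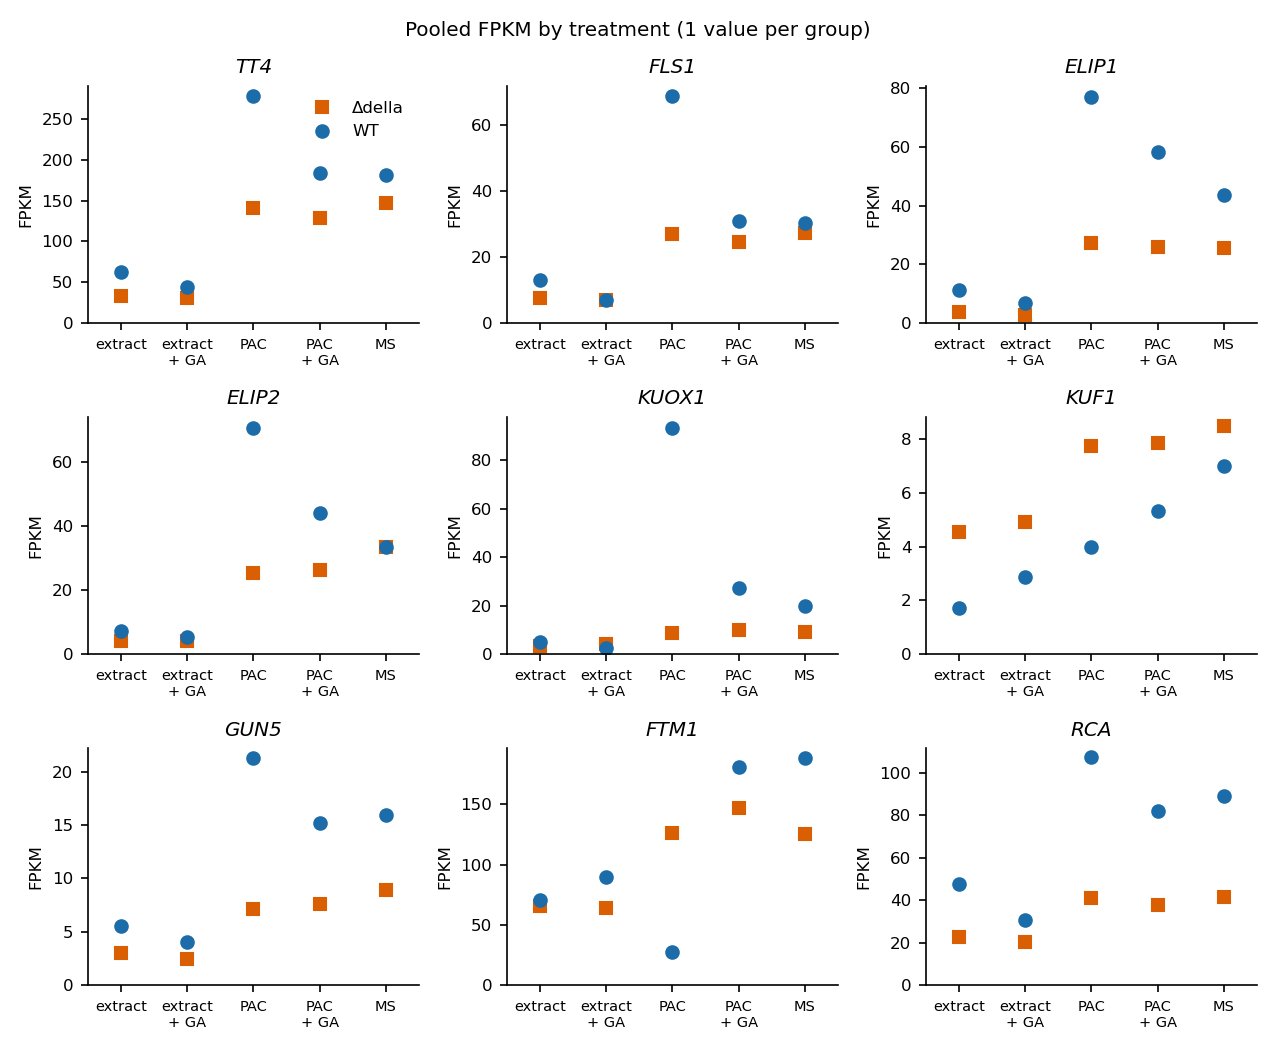
Pooled FPKM of 9 members by treatment, with Δdella seeds as orange squares and WT seeds as blue circles, 1 value per group and no error. In TT4, FLS1, ELIP1, ELIP2, KUOX1, KUF1, GUN5 and RCA both extract values lie below the other 3 values of the same genotype, while FTM1 in WT seeds is lowest with PAC, at 27.1 FPKM.

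The stretches before these genes were searched for elements known from light-regulated, stress-regulated and flavonoid genes, in the 250 bases before each start annotated by RefSeq on TAIR10.1, on both strands. The G-box, CACGTG, the element that HY5 and other basic leucine zipper and helix-loop-helix proteins can bind, was found before 12 of the 61 protein-coding members (19.7%), against 7.86% of 16558 protein-coding genes that could pass and 6.57% of all 26686 windows. The 12 were TT4, CHIL, ELIP1, PUB19, AT2G43140, RAP2.6, CBF2, HCF107, BMY3, AT5G26200, AT2G36030 and AT4G27657. The shorter ACGTG, which lies within every G-box, was found before 22 members (36.1%), against 23.3% of the genes that could pass and 23.1% of all. The I-box, GATAAG, was before 12 members (19.7%), against 12.2% of the genes that could pass and 12.2% of all. The core of the W-box, TTGAC, was before 33 members (54.1%), against 44.2% of the genes that could pass and 45.0% of all. The MYB element ACCTACC and the GCC box, GCCGCC, were each before 2 members (3.28%), against 1.13% and 1.99% of the genes that could pass and 1.16% and 1.85% of all. These shares were not tested, and a match of letters is not a binding site. Median GC content was 32.0% in the members' windows and 31.6% in those of the genes that could pass.

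Windows of 4 members are shown 5′ to 3′, with the G-box in capitals, because they carry the element in the groups described here: ELIP1 from the ELIP family, TT4 and CHIL from the flavonol pathway, and PUB19, a stress-induced ubiquitin ligase, as the member with the most matches. PUB19 was chosen after its sequence had been searched. Most members of the ELIP family and of the flavonoid list lack the element in their windows: ELIP2 and PSBS have none, nor do TT5, TT7 and FLS1. The windows lie on TAIR10.1 at chr3:8085670-8085919 (minus strand), chr5:4488226-4488475 (plus), chr5:1563036-1563285 (plus) and chr1:22198016-22198265 (plus). The elements begin 66 bases before the start in ELIP1, 233 in TT4, 67 in CHIL, and 126, 76 and 7 in PUB19. These starts are those of RefSeq, and 50.2% of the matched regions of the table share a start or end with RefSeq. For the 4 genes shown the region of the table begins beyond the window's end, for TT4 at 4488688 against 4488475. Positions and absences of the element hold only for the RefSeq starts.
ELIP1: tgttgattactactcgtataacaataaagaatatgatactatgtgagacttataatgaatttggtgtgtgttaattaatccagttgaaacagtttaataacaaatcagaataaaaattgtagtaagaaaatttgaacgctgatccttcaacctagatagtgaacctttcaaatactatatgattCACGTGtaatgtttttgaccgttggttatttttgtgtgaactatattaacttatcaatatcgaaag
TT4: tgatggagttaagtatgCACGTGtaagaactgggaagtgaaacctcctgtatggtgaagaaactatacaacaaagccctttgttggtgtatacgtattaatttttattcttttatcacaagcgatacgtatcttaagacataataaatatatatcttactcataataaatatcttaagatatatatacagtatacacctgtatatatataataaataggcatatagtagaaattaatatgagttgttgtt
CHIL: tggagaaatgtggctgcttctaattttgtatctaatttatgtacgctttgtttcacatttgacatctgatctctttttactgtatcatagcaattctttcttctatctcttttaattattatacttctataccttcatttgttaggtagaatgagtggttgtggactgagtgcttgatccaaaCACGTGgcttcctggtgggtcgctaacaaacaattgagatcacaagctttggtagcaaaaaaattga
PUB19: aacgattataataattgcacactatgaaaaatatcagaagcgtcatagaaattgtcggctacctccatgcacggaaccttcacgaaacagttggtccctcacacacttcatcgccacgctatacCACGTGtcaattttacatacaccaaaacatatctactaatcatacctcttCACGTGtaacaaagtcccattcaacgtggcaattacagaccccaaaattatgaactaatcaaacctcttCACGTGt

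**Figure D3:**
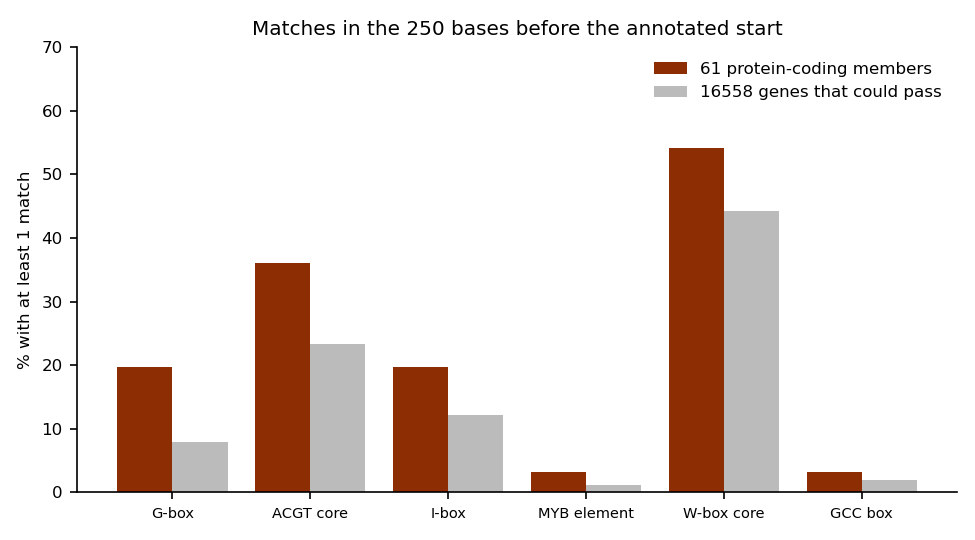
Share of genes (% of windows, from 0) with at least 1 match to each element in the 250 bases before the annotated start, for the 61 protein-coding members (brown) and 16558 protein-coding genes that could pass the rule (grey). The members' bar is the taller for all 6 elements, with 19.7% against 7.86% for the G-box, and no error or test is attached to the bars. Every G-box is also counted as an ACGT core, and the MYB element and GCC box bars rest on 2 members each.

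Light-signalling genes themselves were mostly outside the set. Of 25 listed, BBX20 (AT4G39070, named BZS1 in the annotation) and BBX25 (AT2G31380, named STH) were members. In Δdella seeds BBX20 had 10.7 FPKM both with extract and with extract and GA, against 18.7 FPKM on MS. In WT seeds BBX20 had 5.23 FPKM with extract and 5.65 FPKM with extract and GA, against 12.5 FPKM on MS. BBX25 was low throughout, with 0.927 and 1.00 FPKM in the extract groups and 2.14 FPKM on MS in Δdella seeds, and 1.31 and 1.47 FPKM in the extract groups and 3.25 FPKM on MS in WT seeds. HY5 had log2 ratios of -0.45 and -0.66 in Δdella seeds and -0.38 and -0.49 in WT seeds, and its homologue HYH had -0.85 and -0.93 in Δdella seeds and -0.42 and -0.57 in WT seeds, so both missed the threshold in WT seeds. Another B-box gene, BBX14 (AT1G68520), was a member but not on the list. It had 0.322 and 0.376 FPKM in the extract groups against 1.59 FPKM on MS in Δdella seeds, and 2.81 and 1.32 FPKM against 4.96 FPKM on MS in WT seeds. RPT2 (AT2G30520), a light-induced gene of the phototropism pathway that was not on the list either, had 23.3 and 23.9 FPKM in the extract groups and 49.3 FPKM on MS in Δdella seeds. In WT seeds RPT2 had 14.3 and 10.6 FPKM in the extract groups and 26.8 FPKM on MS.

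BBX20 is also a known target of karrikins, smoke-derived germination stimulants perceived by the receptor KAI2. Of 8 genes in the list of that pathway, 3 were members, all targets: BBX20, KUF1 and KUOX1. In Δdella seeds KUOX1 (AT5G07480) had 3.49 FPKM with extract and 4.23 FPKM with extract and GA, and 8.77 FPKM with PAC, 9.78 FPKM with PAC and GA and 9.02 FPKM on MS. In WT seeds KUOX1 had 5.12 FPKM with extract and 2.41 FPKM with extract and GA, and 93.2 FPKM with PAC, 27.3 FPKM with PAC and GA and 19.7 FPKM on MS. The WT values of KUOX1 thus spanned a far wider range than the Δdella values. In Δdella seeds KUF1 (AT1G31350) had 4.55 FPKM with extract and 4.90 FPKM with extract and GA, against 8.48 FPKM on MS. In WT seeds KUF1 had 1.73 FPKM with extract and 2.86 FPKM with extract and GA, against 6.98 FPKM on MS. The paper reports KUF1 and BBX20 as repressed in WT but not Δdella seeds, by a stricter fold change and a false discovery rate. At the milder ratio used here both passed, with smaller changes in Δdella seeds. KUF1 was at -0.77 and -0.68 against -1.55 and -1.05 in WT seeds, and BBX20 at -0.76 and -0.75 against -1.12 and -1.02. The target DLK2 was lower only in the WT contrasts, at -0.83 and -1.03 against -0.18 and -0.33 in Δdella seeds, from levels on MS of 0.687 FPKM in Δdella and 1.71 FPKM in WT seeds. KAI2 itself lay between -0.23 and 0.09 in the 4 contrasts, and its partner MAX2 between -0.23 and -0.02.

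Of 19 genes of tetrapyrrole and chlorophyll synthesis, 2 were members and none of the others was lower in any of the 4 contrasts. They were GUN5 (AT5G13630, also CHLH), the large subunit of magnesium chelatase, and PORB (AT4G27440), a light-dependent protochlorophyllide reductase. In Δdella seeds GUN5 had 2.96 FPKM with extract and 2.47 FPKM with extract and GA, against 8.93 FPKM on MS. In WT seeds GUN5 had 5.56 FPKM with extract and 4.01 FPKM with extract and GA, against 15.9 FPKM on MS. The other chelatase subunit genes, CHLD, CHLI1 and CHLI2, lay between -0.34 and 0.02 on the log2 scale. PORB had 30.8 and 29.5 FPKM in the extract groups and 63.1 FPKM on MS in Δdella seeds. In WT seeds PORB had 37.5 and 30.2 FPKM in the extract groups and 71.2 FPKM on MS.

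Photosynthesis genes proper were lower mainly in the WT contrasts. Of 44 photosystem and electron transport genes 37 could pass and none was a member. In Δdella seeds 0 were lower and 2 higher with extract, and 3 were lower with extract and GA. In WT seeds 13 and 12 were lower. Among all genes that could pass, 1.81% and 1.44% were lower in Δdella seeds, and 1.67% and 2.18% in WT seeds. Of 15 Calvin cycle genes, RCA (AT2G39730), which encodes Rubisco activase, was the member. RCA had 22.7 FPKM with extract and 20.5 FPKM with extract and GA in Δdella seeds, against 41.3 FPKM on MS. In WT seeds RCA had 47.6 FPKM with extract and 30.5 FPKM with extract and GA, against 88.8 FPKM on MS. Other members act in plastids too. CDSP32 (AT1G76080), a plastid thioredoxin, had 2.02 and 2.1 FPKM in the extract groups and 3.74 FPKM on MS in Δdella seeds, and 4.2 and 2.06 FPKM in the extract groups and 7.97 FPKM on MS in WT seeds. HCF107, an RNA-binding protein for a photosystem II transcript, was under 3 FPKM in all groups.

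Some rapid stress and hormone response genes were members too. Of 34 genes in the list of rapid stress, touch and jasmonate responses, 24 could pass and 4 were members: ERF105, CML38, CBF2 and JAZ9. CML38 (AT1G76650), a calmodulin-like protein, had 25.3 FPKM with extract and 25.4 FPKM with extract and GA in Δdella seeds, against 58.6 FPKM on MS. In WT seeds CML38 had 37.7 FPKM with extract and 31.2 FPKM with extract and GA, against 108 FPKM on MS. ERF105 (AT5G51190), an ethylene response factor of the cold and stress response, had 2.06 and 3.06 FPKM in the extract groups and 8.99 FPKM on MS in Δdella seeds. In WT seeds ERF105, listed by its identifier, had 4.12 and 3.76 FPKM in the extract groups and 10.3 FPKM on MS. JAZ9 (AT1G70700, TIFY7), a repressor of jasmonate responses, had 2.89 and 3.18 FPKM against 6.60 FPKM on MS in Δdella seeds, and 4.38 and 3.90 FPKM against 9.16 FPKM on MS in WT seeds. CBF2 (AT4G25470), a cold response factor, had at most 1.81 FPKM in any group. Over the list 5 genes were lower and 1 higher in each Δdella contrast, and 6 lower with extract and 5 with extract and GA, with 1 higher in each, in WT seeds. The higher gene was ZAT12, with log2 ratios of 1.49 and 1.81 in Δdella seeds and 0.61 and 0.99 in WT seeds. Several members outside the list are stress factors as well. DREB2A (AT5G05410), which acts in heat and drought, had 55.3 and 60.1 FPKM against 92.2 FPKM on MS in Δdella seeds, and 78.9 and 76.5 FPKM against 123 FPKM on MS in WT seeds. RAP2.6 (AT1G43160), another factor of this AP2/ERF class, had 5.21 and 5.56 FPKM against 10.4 FPKM on MS in Δdella seeds, and 9.56 and 7.44 FPKM against 17.2 FPKM on MS in WT seeds.

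Several members highest on MS belonged to none of the 14 lists of pathway and marker genes. AT3G10040 had 96.3 and 97.1 FPKM in the extract groups and 147 FPKM on MS in Δdella seeds, and 127 and 121 FPKM in the extract groups and 224 FPKM on MS in WT seeds. FTM1 (AT1G43800), a stearoyl-acyl carrier protein desaturase, had 65.4 and 64.1 FPKM in the extract groups and 125 FPKM on MS in Δdella seeds. In WT seeds FTM1 had 70.3 and 90.1 FPKM in the extract groups and 189 FPKM on MS. AT5G21940 had 80.3 and 75.5 FPKM in the extract groups and 130 FPKM on MS in Δdella seeds, and 81.0 and 78.4 FPKM in the extract groups and 183 FPKM on MS in WT seeds. Further members are enzymes. The glucosyltransferases UGT71C1 and UGT73B1, the vacuolar invertase ATBETAFRUCT4, the phosphofructokinase PFK1, the glutamate decarboxylase GAD2, the methyltransferase HOL1, the chitinase ChiC and the plastid desaturase FADA all lay between -1.35 and -0.62 in the 4 contrasts.

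The 3 small RNA genes have short mature transcripts without a poly(A) tail, for which FPKM from an mRNA library are uncertain. The tRNA gene AT1G15090 was listed at 0 with extract, with extract and GA and with PAC alone in WT seeds and the snoRNA gene AT1G19376 at 0 in 2 of the WT groups, and they had the lowest mean ratios of all members. In Δdella seeds AT1G15090 had 127 FPKM with extract and 111 FPKM with extract and GA, and 67.1 FPKM with PAC, 120 FPKM with PAC and GA and 265 FPKM on MS. MIR166a had 3.77 FPKM on MS in Δdella seeds and 5.10 FPKM on MS in WT seeds and was listed at 0 in all other groups. It met the rule by having a value on MS alone. Without these genes 61 members remain.

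The PAC groups, with and without GA, were not used by the rule, but their contrasts share the MS values with it. With PAC, 5 members were lower and 1 higher in Δdella seeds, against backgrounds of 0.569% and 0.376% of the genes that could pass, and the median log2 ratio was -0.09. In WT seeds 21 members were lower and 13 higher, against backgrounds of 9.98% and 7.16%, with a median log2 ratio of -0.05. The direction with extract, by contrast, is fixed by the rule and is not set against these counts.

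The 13 members higher with PAC in WT seeds were KUOX1, TT5, FLS1, CDSP32, TT7, ELIP2, ELIP1, BBX20, PP2-A5, AT2G36854, UGT71C1, AT2G43590 and TT4. Of the 5 flavonoid enzyme members, 4 are among them, and the fifth, CHIL, was at 0.25. They had a median log2 ratio of 0.80 with PAC in WT seeds, where the extract gave -1.16. With PAC in Δdella seeds their median was -0.07. FLS1 had 68.7 FPKM, TT7 137 FPKM and TT5 22.6 FPKM with PAC in WT seeds, against 30.1, 61.8 and 7.70 FPKM on MS. That the extract and PAC values of these genes lie on opposite sides of the MS value follows from how they were chosen, by the rule and by their PAC value.

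The 21 members lower with PAC in WT seeds included the 3 small RNA genes. Their median log2 ratio was -1.02 with PAC in WT seeds, where the extract gave -1.27, and -0.09 with PAC in Δdella seeds, where the extract gave -0.87. AT4G33560 had 34.2 FPKM with extract, 36.8 FPKM with extract and GA, 58.1 FPKM with PAC, 62.1 FPKM with PAC and GA and 59.8 FPKM on MS in Δdella seeds. In WT seeds AT4G33560 had 12.4 FPKM with extract, 26.2 FPKM with extract and GA, 1.72 FPKM with PAC, 38.7 FPKM with PAC and GA and 40.2 FPKM on MS. FTM1 had 126 FPKM with PAC and 125 FPKM on MS in Δdella seeds, and 27.1 FPKM with PAC and 189 FPKM on MS in WT seeds. ATBETAFRUCT4 (AT1G12240) had 7.17 FPKM with extract, 11.5 FPKM with PAC and 12.6 FPKM on MS in Δdella seeds, and 0.923 FPKM with extract, 0.328 FPKM with PAC and 2.76 FPKM on MS in WT seeds. KUF1, CML38, JAZ9 and GAD2 were also in this class. The remaining 30 members lay between -0.51 and 0.53 with PAC in WT seeds, among them GUN5, PORB, RCA, PSBS, CHIL and DREB2A. Among all genes that could pass, 30 of the 1700 lower with PAC in WT seeds were also lower in Δdella seeds, and 25 of the 1219 higher ones were also higher.

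**Figure D4:**
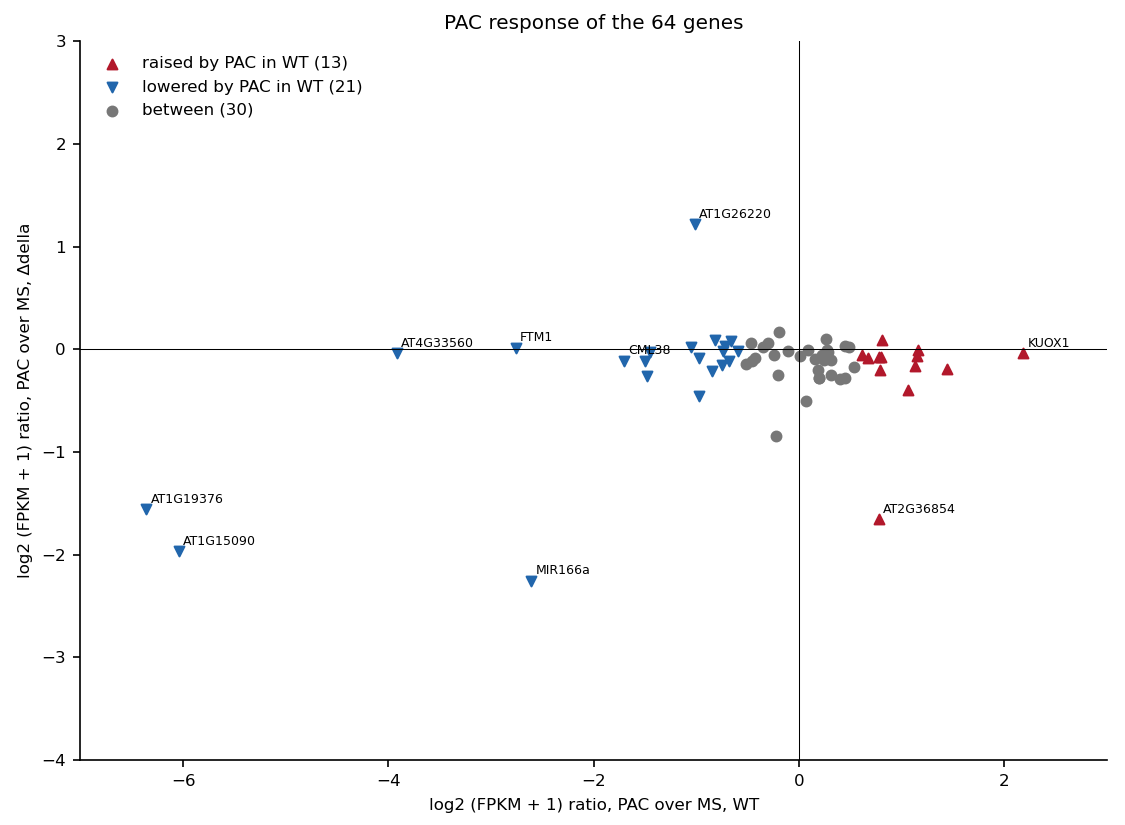
Log2 ratio of FPKM + 1 with PAC over MS in WT seeds (horizontal) and in Δdella seeds (vertical) for the 64 members, 1 point per gene. Red triangles are the 13 members higher and blue triangles the 21 members lower with PAC in WT seeds, and grey circles the other 30. Most points lie near the horizontal line at 0, so that the spread is along the WT axis, with the 3 small RNA genes, AT1G26220, AT2G36854 and AT3G04410, at -0.85 in Δdella seeds, past the ratios on the vertical axis.

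With PAC and GA over MS, 7 members were lower and 1 higher in Δdella seeds, against backgrounds of 0.628% and 0.364%, and the median was -0.16. In WT seeds 13 were lower and 1 higher, against 1.28% and 1.33%, with a median of -0.11. Extract with GA was also set against extract alone, although the rule required both values to be low. In Δdella seeds 0 of 64 members were lower and 0 higher, against 0.323% and 0.505% of the genes that could pass, a count near the background from which nothing is read. In WT seeds 9 members were lower and 3 higher, against 1.59% and 1.26%. Among the 9 the lowest ratio, -1.01 on the log2 scale, was that of AT2G36854, followed by AT2G47560 at -0.99. Setting extract and GA against PAC and GA, which does not use the MS value, 48 members were lower in Δdella seeds (background 1.23%) and 49 in WT seeds (background 3.06%), with medians of -0.77 and -1.03. The extract and GA values in this contrast are those the rule used.

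Both extract values lay below all 3 other values of the genotype for 59 members in Δdella seeds and 47 in WT seeds, and for 46 in both. The background shares were 19.3%, 13.6% and 5.81%. The counts share the extract and MS values with the rule, so nothing is read from them as such. Of the 17 members that overlapped in WT seeds, 15 were in the class lower with PAC. A low PAC value defines that class and also makes an overlap likely, so nothing is read from this count either.

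Contrasts between PAC groups use no library of the rule. With PAC and GA over PAC alone in WT seeds, 14 members were lower and 12 higher, 21.9% (95% Wilson interval 13.5 to 33.4%) and 18.8% (11.1 to 30.0%), against backgrounds of 4.12% and 7.33%. The intervals cover counting over genes only, and members of 1 pathway are not independent. The class higher with PAC had a median log2 ratio of -0.95 and 11 of its 13 members were lower, the class lower with PAC had a median of 0.55 and 10 of its 21 members were higher. Since these classes were chosen by the same PAC value, their direction here is a description. In Δdella seeds 3 members were lower and 3 higher (4.69% each), against backgrounds of 0.487% and 0.37%, with a median of -0.02. The higher ones were the small RNA genes AT1G15090 and AT1G19376, and AT2G36854, listed at 0 with PAC. Without the small RNA genes 1.64% were higher.

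Between the genotypes, the median member was lower in Δdella seeds under each of the 3 conditions without extract. With PAC, 26 members were lower and 14 higher in Δdella than in WT seeds, 40.6% (29.5 to 52.9%) and 21.9% (13.5 to 33.4%), against backgrounds of 12.7% and 16.7%, and the median was -0.29. With PAC and GA, 17 were lower and 8 higher, 26.6% (17.3 to 38.5%) and 12.5% (6.47 to 22.8%), against 6.06% and 9.08%, with a median of -0.32. Over all genes that could pass, the medians of these contrasts were -0.02 and -0.03. On MS, where the values had entered the rule, 21 were lower and 6 higher, against 4.06% and 7.98%, with a median of -0.33. The member furthest below on MS was AT2G47560, with 3.13 FPKM in Δdella and 13.8 FPKM in WT seeds, and RCA had 41.3 FPKM in Δdella and 88.8 FPKM in WT seeds. On the other side the tRNA gene AT1G15090 was highest, with 265 FPKM in Δdella and 64.9 FPKM in WT seeds on MS, followed by ATBETAFRUCT4, with 12.6 FPKM in Δdella and 2.76 FPKM in WT seeds.

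**Figure D5:**
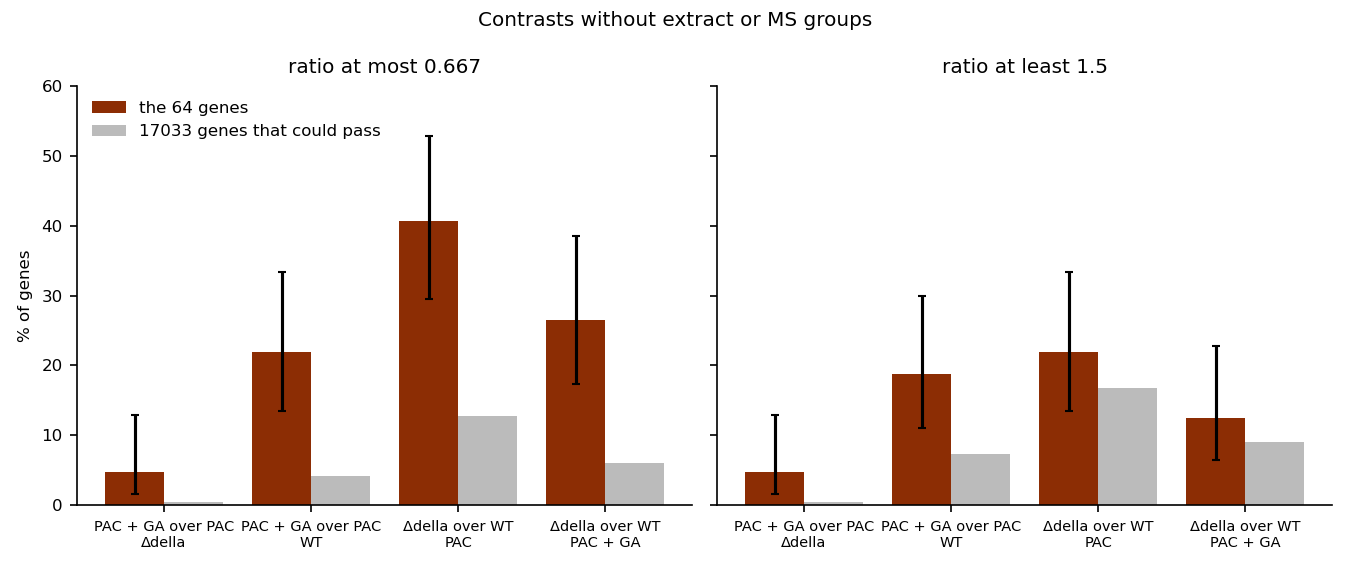
Share of the 64 members (brown, with 95% Wilson intervals for counting over genes) and of the 17033 genes that could pass (grey) that are lower (left panel, ratio at most 0.667) or higher (right panel, ratio at least 1.5) in the 4 contrasts that use no group of the rule. The widest gap is in the share lower in Δdella than in WT seeds with PAC, 40.6% against 12.7%.

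The size of the extract response was compared between the genotypes member by member. The log2 ratio with extract in Δdella minus that in WT seeds had a median of 0.04 and a range of -0.84 to 4.99, and 45 of 64 members lay within 0.5 of 0. With extract and GA the median was 0.17, the range -0.76 to 4.79 and the number within 0.5 was 49. The upper end of both ranges is the tRNA gene AT1G15090, listed at 0 in both WT extract groups. With extract alone 2 members were at 1 or above, both of them small RNA genes. With extract and GA 3 members were, among them the protein-coding KUOX1 and AT2G47560. KUOX1 was at -0.94 in Δdella and -2.60 in WT seeds, and AT2G47560 at -1.22 and -2.31. Since the rule required a low ratio in both genotypes, a small difference is partly set by it. TT5, with -2.21 in Δdella and -1.37 in WT seeds, and CML38, with -1.18 in Δdella and -1.50 in WT seeds, differed in opposite directions.

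Most members were expressed well above the added value of 1. On MS, 47 had at least 5 FPKM in both genotypes, while 12 had a mean below 5 FPKM, where a single value without replicates carries the least weight. In some group 6 members were listed at 0. For 11 members, among them TT4, PFK1, FADA, GAD2 and BBX25, the table's region held at least 1 further gene. The kit marked strand, but whether the authors' counting used strand is not known here, and reads of such neighbours could have been assigned to either.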

How the data were processed

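The authors sequenced mRNA of 20 seed libraries, 2 biological replicates in each of 10 groups, as single-end 50 bp reads with a stranded kit, mapped them to TAIR10 with TopHat and ran Cuffdiff with the replicates pooled. The authors' deposited table holds FPKM, 1 value per gene and group, each repeated 9 times over the 45 pairs of groups without a difference. Tool versions and the annotation release are not stated in the labels or methods. The table's own fold changes, statistics, p-values and q-values were not used. Depth in reads is unknown, and pooling removes the spread between replicates, so no test was made and the error of each value is unknown.

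Samples were grouped by their titles. Ratios were taken of FPKM + 1, so that changes of genes near 1 FPKM are understated, and a gene counted as lower at a ratio of at most 0.667 and higher at 1.5 or more. Background shares are over the 17033 genes with at least 0.499 FPKM on MS in both genotypes. Members, gene lists and alternatives were chosen with earlier results of these data known. The genes named are all members on a list, the 10 with the lowest mean log2 ratio, the 5 highest on MS, the 3 on each side of the threshold and the 3 most extreme in the other contrasts, and others named were chosen after their values were seen. The 10 lowest and the 3 on each side were taken among genes with at least 5 FPKM on MS in both genotypes. For the 3 most extreme, 5 FPKM on MS in either genotype was enough. Of 33557 identifiers, 32810 matched RefSeq TAIR10.1, which gave names and the promoter windows, while gene regions are those of the table. The script was tested on simulated data. Python 3.11.15, numpy 2.4.6, pandas 2.3.3, scipy 1.17.1 and matplotlib were used. The alternatives were an added value of 0.1 or 5 FPKM, a ratio of 0.5, a filter on mean FPKM, a rescaling of the groups, PAC and GA as the comparison of extract and GA, and, added after the data were seen, leaving out small RNA genes.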

Additional observations from a re-analysis of the deposited data

Results flagged for a closer look

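Opposite responses to PAC stood out for a pair of members, whose values went past the fold in opposite directions in the 2 genotypes. AT1G26220 had 2.82 FPKM with PAC and 0.646 FPKM on MS in Δdella seeds, a log2 ratio of 1.22 on the FPKM + 1 scale, and 0.478 FPKM with PAC and 1.99 FPKM on MS in WT seeds, a log2 ratio of -1.02. AT2G36854 was listed at 0 with PAC and had 2.14 FPKM on MS in Δdella seeds, a log2 ratio of -1.65, and had 5.66 FPKM with PAC and 2.88 FPKM on MS in WT seeds, a log2 ratio of 0.78. The difference between genotypes was not tested, as each group has 1 pooled value. Both genes share their region of the table with others, AT1G26220 with 4 and AT2G36854 with 1, and both are among the members with the lowest FPKM.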

How the results depend on the processing

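No paired analysis was possible because the deposited values pool the replicates of a group and carry no replicate number, and for the same reason no replicate could be left out. The number of members, 64, depended most on the added value and the ratio. Counts of lower genes here are over all genes of the table. In the main setting 387 were lower with extract and 326 with extract and GA in Δdella seeds, and 337 and 430 in WT seeds. With 0.1 FPKM added there were 154 members, 64 of them shared, and 1421 genes were lower with extract and 1261 with extract and GA in Δdella seeds, and 1277 and 1338 in WT seeds. With 5 FPKM added there were 26 members, and 137 and 113 lower genes in Δdella and 126 and 196 in WT seeds. At a ratio of 0.5 there were 15 members, and 106 and 82 lower genes in Δdella and 94 and 140 in WT seeds. Among genes with a mean of at least 5 FPKM, 189 and 147 were lower in Δdella and 191 and 256 in WT seeds. With a mean of at least 1 FPKM there were 59 members, after rescaling by the median of ratios 66, and with PAC and GA in place of MS for the groups with GA 44, of which 41 were shared. Of the members named by the stated choices, 18 were lost at a ratio of 0.5 and 12 with 5 FPKM added. With PAC and GA in place of MS 10 of them were lost. The share of members that passed in other contrasts moved beyond its counting interval in several cases, most often at a ratio of 0.5. With 0.1 FPKM added, 18.8% were lower with PAC and 24.7% with PAC and GA in Δdella seeds, and 20.8% on MS and 27.3% with PAC and GA were higher in Δdella than in WT seeds. With 5 FPKM added 34.6% were higher with PAC in WT seeds. At a ratio of 0.5, 20.0% were lower with PAC in Δdella seeds. Between Δdella and WT seeds at that ratio, 6.67% were lower on MS, 13.3% were higher with PAC, and with PAC and GA 13.3% were lower and 0% higher. Without the small RNA genes 3.28% were lower with PAC in Δdella seeds. Shares of at most 4.69% in the main setting also fell to 0%. This happened in 5 cases at a ratio of 0.5, 4 with 5 FPKM added and 1 with a mean of at least 1 FPKM. Both shares for PAC and GA over PAC alone in Δdella seeds fell to 0% at a ratio of 0.5. The cause was not tested, except that a higher added value or stricter ratio admits fewer genes by construction. Depth in reads is unknown.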

Other observations

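A set of 18 genes known from the response to low oxygen was looked at after FTM1, AT3G10040 (HRA1) and CML38 had been seen among the members, so its values are given without any reading. The 3 members on it are lower in every extract contrast by the rule. In Δdella seeds 4 of the 18 were lower with extract, and 3 were lower and 1 higher with extract and GA. The shares lower among the genes that could pass were 1.81% and 1.44%. In WT seeds 6 were lower with extract and 7 with extract and GA, against backgrounds of 1.67% and 2.18%. With PAC 0 were lower in Δdella seeds and 14 in WT seeds, against backgrounds of 0.569% and 9.98%. LBD41 had 215 FPKM with extract, 283 FPKM with PAC and 290 FPKM on MS in Δdella seeds, and 202 FPKM with extract, 137 FPKM with PAC and 373 FPKM on MS in WT seeds. The fermentation enzyme gene PDC1 had 25.2 FPKM with extract, 38.4 FPKM with PAC and 38.5 FPKM on MS in Δdella seeds, and 18.2 FPKM with extract, 9.98 FPKM with PAC and 40.6 FPKM on MS in WT seeds.

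In the other direction, 71 genes were at 1.5 times the MS value or more in all 4 extract contrasts, against the 64 described here. On the list of light-signalling genes, PIF4 was higher with extract in WT seeds, with 2.38 FPKM with extract, 2.16 FPKM with extract and GA and 1.29 FPKM on MS in Δdella seeds, and 3.84 FPKM with extract, 2.85 FPKM with extract and GA and 1.85 FPKM on MS in WT seeds.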
